A study of Oryzias latipes with 24 samples.

Results

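The vision genes rho (IGDB24535), arr3 (IGDB14270) and rpe65 (IGDB16890) were followed through medaka development; they are 3 of the 26549 genes in the time-course table. They were taken by identifier, and their levels were read in all 22 libraries. The samples are medaka (Oryzias latipes) embryos and, at the last stage, larvae, at stages 6, 11, 15, 19, 25, 29, 32, 36, 38, 40 and 41, with 2 libraries per stage. The animals were untreated. The study collected many of them per stage, so each library is read as a pool of whole animals and an SD as a spread between pools. The labels give the Hd-rR strain for 20 libraries and d-rR / Qurt for replicate 2 of stages 40 and 41, where strain and replicate number cannot be told apart. Levels are in TPM, a transcript share that divides reads by transcript length and sets each gene against all RNA in the library. TPM can thus be compared between genes, but it holds no read depth.

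Photoreceptors catch light with opsins, which bind the chromophore 11-cis retinal. Light turns the chromophore to its all-trans form, the active opsin signals through a G protein, and arrestins switch the opsin off. The visual cycle then remakes 11-cis retinal in the pigment epithelium behind the retina. The gene rho encodes rhodopsin, the opsin of rods, which serve dim light; arr3 is the cone arrestin of vertebrates, cones being the photoreceptors of bright light and colour; and rpe65 encodes the isomerase of the visual cycle.

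The rho model lies on chromosome 7, positions 16841259 to 16842858, on the minus strand, and is a single exon of 1600 bases, as the retinal rhodopsin gene of teleost fishes has no introns. The arr3 model covers positions 7960924 to 7966679 of chromosome 14 on the minus strand, with 17 exons and 1620 exonic bases. The rpe65 model covers positions 27015657 to 27019192 of chromosome 17 on the plus strand, with 14 exons and 1831 exonic bases. Each has 1 transcript, and no other model overlaps it. The positions are those of the deposited models, and every end lies within 38 bases of the RefSeq gene of that name in assembly ASM223467v1.

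All 3 genes were near 0 until stage 25 and abundant from stage 36 on. In between, arr3 and rpe65 were at low levels at stages 29 and 32, and rho at stage 32. In the 10 libraries up to stage 25, the highest value was 0.0715 TPM for rho, 0.318 TPM for arr3 and 0.0964 TPM for rpe65. In those libraries rho was listed at 0 in 7, arr3 in 3 and rpe65 in 6. The early values are thus fractions of 1 TPM, and how many reads they stand for is unknown. All 3 genes passed the filter of 1 TPM in at least 2 libraries, rho with 10 libraries at that level, arr3 with 9 and rpe65 with 11.

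Rhodopsin RNA was listed at 0 in both libraries of stage 29. It was 2.39 and 9.08 TPM at stage 32, 600.2 and 408 TPM at stage 36, 4377 and 3216 TPM at stage 38, 5663 and 3684 TPM at stage 40, and 1580.3 and 1132 TPM at stage 41 (replicates 1 and 2). The libraries of each stage from 32 to 38 lay above those of the stage before, stages 38 and 40 overlapped, and stage 41 lay below both. At its height, in replicate 1 of stage 40, rho made up 0.57% of all TPM and ranked 18 among all genes of that library. In replicate 2 of that stage it made up 0.368% and ranked 28. Ordered by mean level, stage 40 (4674 ± 1399 TPM, SD, n = 2) came first, then stages 38 (3797 ± 821 TPM), 41 (1356 ± 317 TPM), 36 (504 ± 136 TPM) and 32 (5.74 ± 4.73 TPM). Within this order only the libraries of stages 40 and 38 overlapped. With 2 libraries per stage, a lack of overlap does not by itself show a difference. The share of all genes without overlap was not counted, here or below.

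The cone arrestin gene arr3 was at 0 and 0.69 TPM at stage 29 and at 0.444 and 6.38 TPM at stage 32. It was 189 and 96.1 TPM at stage 36, 372 and 267 TPM at stage 38, 272 and 93.2 TPM at stage 40, and 77.9 and 93.8 TPM at stage 41. The highest mean was that of stage 38 (319 ± 74.2 TPM), followed by stages 40 (182 ± 126 TPM), 36 (143 ± 65.7 TPM), 41 (85.9 ± 11.2 TPM) and 32 (3.41 ± 4.2 TPM). Stages 38 and 40 overlapped, as did stages 40 and 36, and stages 32 and 29. Of the 3 genes arr3 had the widest gap between the libraries of stage 40, with replicate 2, the d-rR / Qurt library, at 0.343 times the level of replicate 1. That ratio was 0.651 for rho and 1.33 for rpe65.

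The isomerase gene rpe65 was at 0.199 and 2.26 TPM at stage 29 and at 2.07 and 7.79 TPM at stage 32. It was 67.3 and 65.2 TPM at stage 36, 132 and 189 TPM at stage 38, 81.5 and 109 TPM at stage 40, and 36.4 and 35.5 TPM at stage 41. By mean level the order was stage 38 (161 ± 40.5 TPM), 40 (95.2 ± 19.3 TPM), 36 (66.3 ± 1.49 TPM), 41 (36 ± 0.661 TPM) and 32 (4.93 ± 4.05 TPM). No neighbours among these overlapped, whereas stages 32 and 29 did. Stages 38 and 40 were nevertheless not called apart in the limma test below (adjusted p = 0.809). At stage 32 replicate 2 was the higher library for all 3 genes, 3.8 times replicate 1 for rho, 14.4 times for arr3 and 3.77 times for rpe65.

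**Figure D1:**
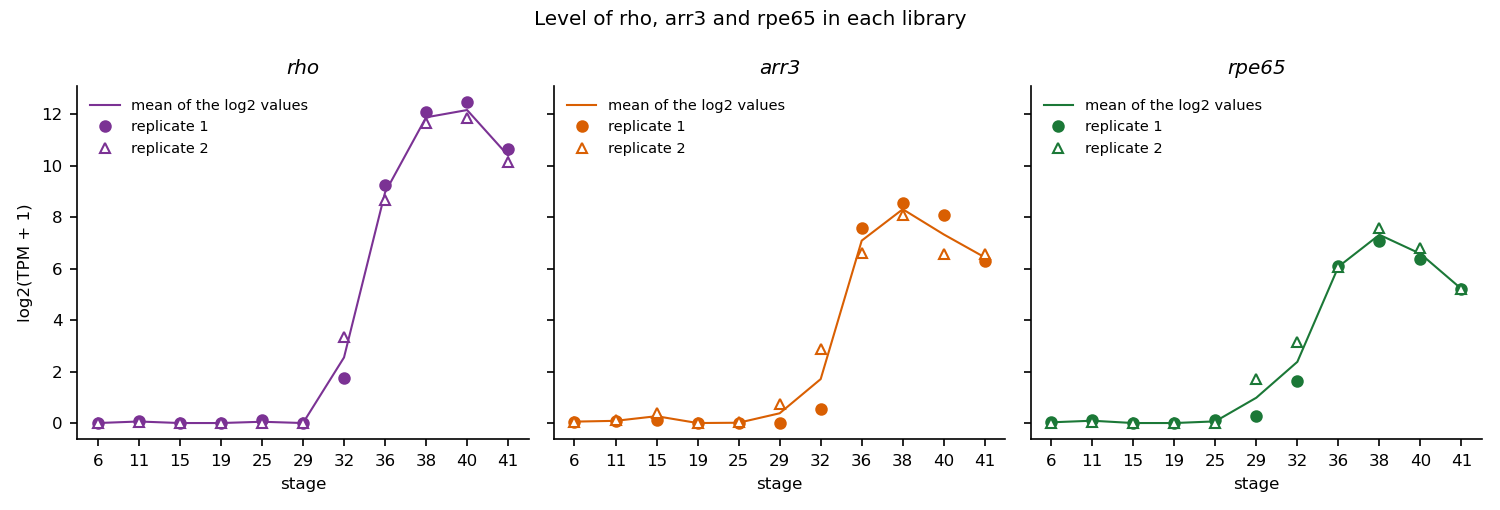
Level of each gene as log2(TPM + 1) against stage, one panel per gene; filled circles are replicate 1, open triangles replicate 2, and the line joins the means of the log2 values. The 3 genes lie near 0 until stage 25 and are high from stage 36, with rho reaching 5663 TPM at stage 40, arr3 372 TPM and rpe65 189 TPM at stage 38.

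To ask at which step the genes changed, adjacent stages were compared with limma on log2(TPM + 1). The fit estimates 1 spread per gene, shared by the 22 libraries of all stages, including those where the gene is near 0. A gene was called when its adjusted p was under 0.05 and its log2 difference, later minus earlier stage, was at least 1. Over the 11 stages as a whole all 3 genes differed (F test, adjusted p = 1.4e-14 for rho, 1.15e-10 for arr3 and 2.63e-11 for rpe65), but so did 92.7% of the 21179 genes tested.

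From stage 32 to stage 36 all 3 genes rose, where 4.12% of the genes tested were called higher. Mean rho was 504 TPM at stage 36 and 5.74 TPM at stage 32, an 87.9-fold difference and a log2 difference of 6.41 (95% interval 5.58 to 7.23, adjusted p = 1.82e-07). For arr3 the means were 143 TPM at stage 36 and 3.41 TPM at stage 32, with a log2 difference of 5.38 (4.15 to 6.61, adjusted p = 3.85e-05). For rpe65 they were 66.3 TPM at stage 36 and 4.93 TPM at stage 32, with a log2 difference of 3.70 (2.76 to 4.63, adjusted p = 9.17e-05). Both libraries of stage 36 exceeded both of stage 32 for each gene. The sizes differed between replicates 1 and 2: the changes were 7.47 and 5.34 for rho, 7.04 and 3.72 for arr3, and 4.48 and 2.91 for rpe65. Those of rho and arr3 lay outside the intervals above, which are for the mean change. These calls held in every alternative run, although the number of all genes called higher, 873, fell to 124 without replicate 1 of stage 32 and to 182 without replicate 1 of stage 36.

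From stage 36 to stage 38 rho alone of the 3 was called, where 3.08% of the genes tested were called higher. Its mean was 3797 TPM at stage 38 and 504 TPM at stage 36, a log2 difference of 2.92 (2.09 to 3.75, adjusted p = 3.06e-04). The difference was 1.22 for arr3 (-0.01 to 2.45, adjusted p = 0.254) and 1.24 for rpe65 (0.31 to 2.18, adjusted p = 0.12). Both were higher in both libraries of stage 38 than in both of stage 36, so the direction was the same as for rho, and whether the genes differ in this step was not tested. The call of rpe65 depended on the scaling: with median-of-ratios scaling its difference was 1.53 and its adjusted p 0.0284. All genes called higher, 653, came to 1145 without replicate 1 of stage 38, 235 without replicate 2 of stage 36 and 223 without replicate 2 of stage 38, and rho was called in each case.

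No gene of the 3 was called from stage 29 to stage 32. At this step limma called 0.0% of all genes higher and 0.00472% lower. At an unadjusted p under 0.05 in limma, 1516 were higher, 531 of them by a log2 difference of at least 1, and 108 were lower. Without replicate 2 of stage 29, 228 were called higher. Here rho had the log2 difference farthest from 0 of the 3, 2.55 (1.72 to 3.38, adjusted p = 0.0593), against 1.33 for arr3 (adjusted p = 0.575) and 1.39 for rpe65 (adjusted p = 0.387). With the replicate number added to the limma fit as a block, rho was called at this step (2.55, adjusted p = 0.0453). With rho at 0 in both libraries of stage 29, its difference rests on the pseudocount. The rho call changed when 1 library was left out: its adjusted p was 0.0018 without replicate 1 of stage 32 and 0.0337 without replicate 2 of stage 29. The rpe65 difference was 2.12 (adjusted p = 0.043) without replicate 2 of stage 29.

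From stage 38 to stage 40, where 0.335% of genes were called in either direction, none of the 3 was called. The 64 genes called higher came to 186 without replicate 1 of stage 40 and 219 without replicate 2 of stage 38. The 7 called lower came to 57 without replicate 1 of stage 40, 38 without replicate 1 of stage 38 and 17 without replicate 2 of stage 38. The log2 difference was 0.28 for rho (-0.54 to 1.11), -0.98 for arr3 (-2.21 to 0.25) and -0.74 for rpe65 (-1.67 to 0.19), with adjusted p of 1, 0.81 and 0.809. These intervals are wide, and the missing calls do not show that the levels stayed the same.

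From stage 40 to stage 41 rho and rpe65 fell, where 9.71% of the genes tested were called lower and the median gene shifted by -0.22. Mean rho was 1356 TPM at stage 41 and 4674 TPM at stage 40, 3.45-fold lower at stage 41, with a log2 difference of -1.77 (-2.6 to -0.94, adjusted p = 0.00431). Mean rpe65 was 36 TPM at stage 41 and 95.2 TPM at stage 40, a log2 difference of -1.36 (-2.3 to -0.43, adjusted p = 0.0401). For arr3 the difference was -0.89 (-2.12 to 0.34, adjusted p = 0.36). Its replicates parted: between the Hd-rR libraries it was -1.79, and between the d-rR / Qurt libraries 0.01. For rho the same changes were -1.84 and -1.70, and for rpe65 -1.14 and -1.59.

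These falls were less firm than the rises. The Hd-rR libraries alone hold only replicate 1 of stages 40 and 41, and the part of strain in a lost call was not tested. The rho call was lost without replicate 1 of stage 40 (adjusted p = 0.0561), without replicate 2 of stage 41 (adjusted p = 0.0571) and in the Hd-rR libraries alone, with a difference of -1.84 and an adjusted p of 0.068. The rpe65 call was lost without either library of stage 40 or 41 (differences of -1.57 to -1.16) and in the Hd-rR libraries alone (-1.14). It was also lost without either library of stage 6, 15, 19 or 25, where the difference stayed at -1.36. Those early libraries are no part of this difference, and rpe65 was at most 0.0964 TPM in them. They enter through the spread shared by all stages and the set of genes tested. This call thus leans on libraries where rpe65 was near 0. All genes called lower, 2057, numbered 1302 without replicate 1 of stage 41, 1365 without replicate 2 of stage 40, 1230 without replicate 2 of stage 41 and 653 in the Hd-rR libraries. Genes called higher made up 34.9% of all calls at this step, against 50.3% with median-of-ratios scaling, where the median gene shifted by -0.02.

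**Figure D2:**
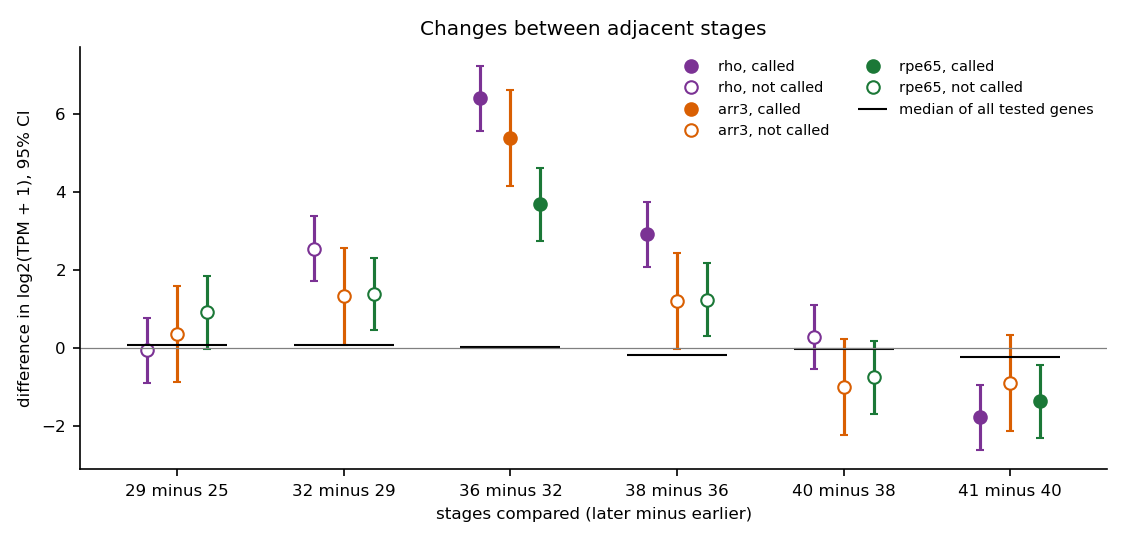
Difference in log2(TPM + 1) between adjacent stages, later minus earlier, for the 3 genes with 95% confidence intervals; filled circles were called, open circles were not, and black bars mark the median of all tested genes. All 3 genes are called at stage 36 against stage 32 (6.41, 5.38 and 3.70), rho alone at stage 38 against 36, and rho and rpe65 at stage 41 against 40.

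All 3 genes were called from stage 32 to 36. At stages 36 and 40 the means of arr3 and rpe65, as shares of their highest stage mean, lay closer to each other than to that of rho. The arr3 libraries lay far apart at both stages (189 and 96.1 TPM at stage 36, 272 and 93.2 TPM at stage 40). Whether the courses differ was not tested. At stage 36 rho stood at 10.8% of its highest stage mean, arr3 at 44.7% and rpe65 at 41.2%. At stage 40 rho was at its highest mean, while arr3 was at 57.2% and rpe65 at 59.2% of theirs. At stage 41 the values were 29% for rho, 26.9% for arr3 and 22.4% for rpe65, so arr3 was there nearer to rho than to rpe65. The stage of the highest mean is not firmly set for rho and arr3, since stages 38 and 40 overlapped for both. For rpe65 these stages did not overlap, but no difference between them was called.

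Ratios between the genes were also read within each library. The TPM of rho over that of arr3 was 3.18 and 4.24 at stage 36, 11.8 and 12.1 at stage 38, 20.8 and 39.5 at stage 40, and 20.3 and 12.1 at stage 41. Over rpe65 it was 8.92 and 6.26 at stage 36, 33.1 and 17 at stage 38, 69.5 and 33.9 at stage 40, and 43.4 and 31.9 at stage 41. In both ratios the libraries of stage 38 lay above those of stage 36, and the libraries of stage 40 above those of stage 38. The ratio of arr3 to rpe65 showed no such order: it was 2.81 and 1.47 at stage 36, 2.81 and 1.41 at stage 38, 3.33 and 0.857 at stage 40, and 2.14 and 2.64 at stage 41. These ratios were described and not tested.

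**Figure D3:**
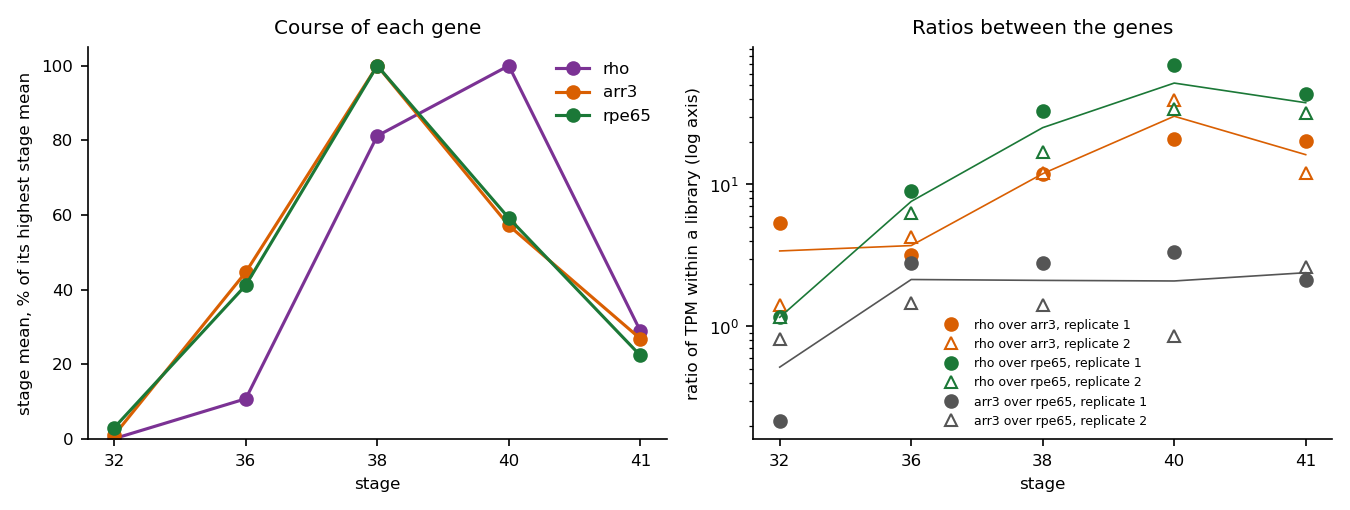
Left, stage mean of each gene as a percentage of its highest stage mean, against stage; right, ratio of TPM between pairs of the genes within a library on a log axis, with filled circles for replicate 1, open triangles for replicate 2 and lines through the means. At stage 36 rho is at 10.8% of its highest mean against 44.7% for arr3 and 41.2% for rpe65, and rho over arr3 is 3.18 and 4.24 at stage 36 but 20.8 and 39.5 at stage 40.

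Copies of the 3 genes in their families were looked up by symbol. Of the other opsins, opn1sw (IGDB20566, the violet cone opsin, also kfh-v), kfh-g (IGDB22543, green) and kfh-r (IGDB08284, red) were found. So was opn3 (IGDB02770), an opsin expressed mainly outside photoreceptors. No gene was matched to the cone opsin symbol kfh-b, so the cone opsins as a whole were not measured here. Statements on cone opsins cover those found. Stage 40 had the highest mean of each cone opsin: 688 ± 204 TPM for opn1sw, 409.5 ± 41.3 TPM for kfh-g and 69.9 ± 24.8 TPM for kfh-r, all below the 4674 TPM of rho. The rho mean was also the highest of the opsins found at each stage from 32 on. Each cone opsin rose from stage 32 to 36, with log2 differences of 5.05, 4.21 and 2.76 (adjusted p = 1.4e-06, 6.29e-07 and 5.32e-06), and again from stage 36 to 38, with 2.52, 2.63 and 2.22 (adjusted p = 9.24e-04, 5.14e-05 and 5.29e-05). At stage 32 kfh-r was listed at 0 in both libraries.

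At stage 41 opn1sw fell to 84.6 TPM, against 688 TPM at stage 40, a log2 difference of -2.98 (adjusted p = 3.62e-05), and kfh-g fell to 65.3 TPM, against 409.5 TPM at stage 40 (-2.64, adjusted p = 4.97e-06). For kfh-r the difference of -0.73 stayed short of the minimum change (adjusted p = 0.0479). The rho difference at this step, -1.77, lay between these, and the differences between the opsins were not tested. The opsin opn3 was at 0.575 to 1.44 TPM in mean from stage 36 on and was not called at any step after stage 32.

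Among the arrestins, kfharr-r2 (IGDB16415, the counterpart of the rod arrestin Sag) was found beside arr3. It was 21.6 and 16.6 TPM at stage 36, 53.4 and 94.6 TPM at stage 38, 43.6 and 47.9 TPM at stage 40 and 12.9 and 16.5 TPM at stage 41. This rod arrestin copy was thus below arr3 in every library from stage 36 on, while rho was above each cone opsin found. No gene was matched to kfharr-r1, so rod arrestin as a whole was not measured here. It rose from stage 32 to 36 (log2 difference 3.49, adjusted p = 1.59e-05) and from stage 36 to 38 (1.85, adjusted p = 0.00438) and fell from stage 40 to 41 (-1.58, adjusted p = 0.00393). Of the carotenoid oxygenases, the family of rpe65, bco2 (IGDB02205), which cleaves carotenoids, was found. Its course was another: it stayed at or under 0.24 TPM to stage 38 and rose to 4.66 and 3.12 TPM at stage 41, against 0.478 and 1.58 TPM at stage 40 (log2 difference 1.31, adjusted p = 3.74e-04).

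**Figure D4:**
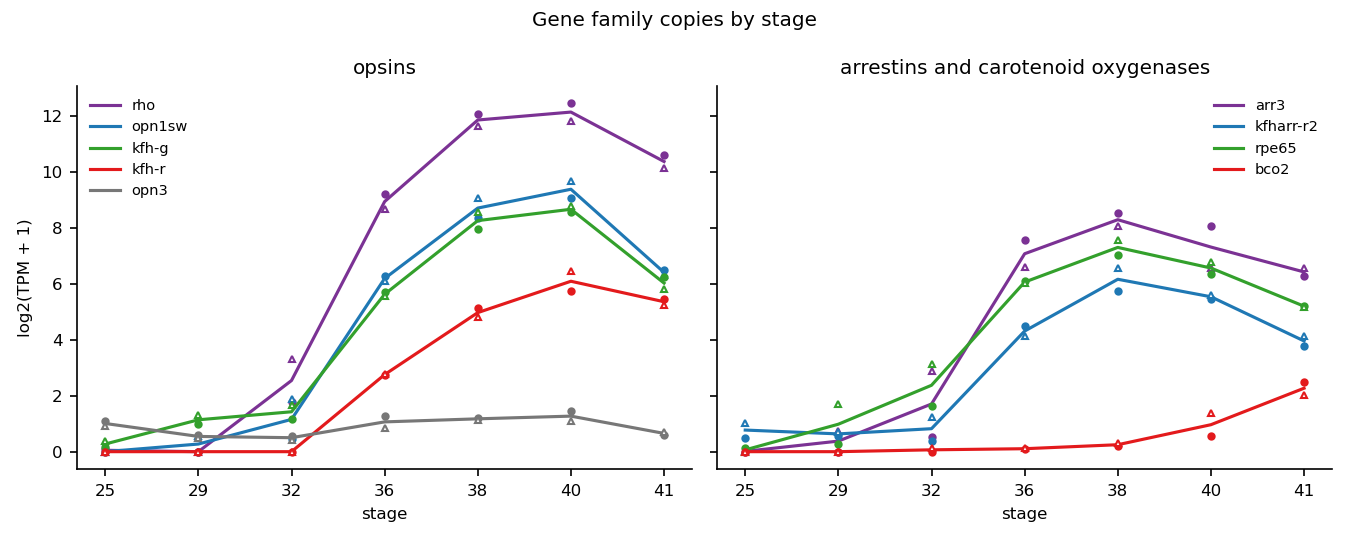
Level as log2(TPM + 1) at stages 25 to 41 for the opsins (left) and the arrestins and carotenoid oxygenases (right); circles are replicate 1, triangles replicate 2, and lines join the means. In both stage 40 libraries rho (5663 and 3684 TPM) is above the cone opsins found, and arr3 is above kfharr-r2 from stage 36 on.

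The other genes of both pathways were read from lists of symbols. Of 46 phototransduction symbols, 16 matched a gene, and 15 tested genes remained beside rho and arr3. From stage 32 to 36, 7 of the 15 rose and none fell, where 4.12% of all genes were called higher, and the median log2 difference was 1.26, against 0.03 over all genes. From stage 36 to 38, 11 rose and none fell, against 3.08% of all genes called higher (median 2.12, against -0.18). From stage 40 to 41, 8 fell and none rose, against 9.71% of all genes called lower (median -1.17, against -0.22). The cone opsins opn1sw and kfh-g matched no symbol of this list and are not among the 15. Their highest means were 688 and 409.5 TPM, both at stage 40. Of the 15, the beta subunit gene ol-gb (IGDB12556, a synonym of which is Gnb3) had the highest level. It rose to 14.2 TPM at stage 36, against 0.25 TPM at stage 32 (log2 difference 3.62, adjusted p = 3.29e-06), was highest at stage 40 (159 ± 37.5 TPM) and fell to 39.6 TPM at stage 41 (-1.99, adjusted p = 2.39e-04).

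Over all steps 13 of the 15 rose at least once, some of them at early steps only, as did 44.6% of all genes tested. The exceptions, named after their values were seen, were gnb3 (IGDB15928) and gnb5, both G protein beta subunits. Single libraries weighed on these counts: 3 rose from stage 32 to 36 without replicate 1 of stage 32, and 4 without replicate 1 of stage 36. All genes called higher at that step were fewer as well without these libraries. Their number was 338 with a pseudocount of 5 and 477 with quantile normalization, against 873. The share of 4.12% is thus not that of these runs. With a pseudocount of 5, and likewise with quantile normalization, 3 of the 15 rose at that step. From stage 36 to 38, 7 rose without replicate 2 of stage 38. From stage 40 to 41, 5 fell without either library of stage 41, and 3 in the Hd-rR libraries alone.

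Of 23 visual cycle symbols, 11 matched, leaving 10 tested genes beside rpe65. From stage 32 to 36, 4 of the 10 rose, against 4.12% of all genes called higher (median log2 difference 0.46, against 0.03 over all genes). From stage 36 to 38, 2 rose, against 3.08% (median 0.34, against -0.18), and from stage 40 to 41, 3 fell, against 9.71% called lower (median -0.72, against -0.22). The shuttle protein gene rbp3, whose product carries retinoids between photoreceptors and pigment epithelium, went with rho in its calls. It rose to 28.1 TPM at stage 36, against 2.92 TPM at stage 32 (2.68, adjusted p = 0.00165), rose again to 122 TPM at stage 38 (2.36, adjusted p = 0.00403), and fell to 41 TPM at stage 41, against 131 TPM at stage 40 (-1.65, adjusted p = 0.0129). The plasma retinol carrier gene rbp4 was the most abundant of the list (1935 ± 597 TPM at stage 19) and was not called at any step after stage 19. Over all steps 9 of the 10 rose at least once, several of them before stage 25, beside the same 44.6% of all genes. With a pseudocount of 0.1, 1 of the 10 rose from stage 32 to 36. With a pseudocount of 5, and likewise with quantile normalization, 2 did. All genes called higher at this step were fewer in these runs too (527, 338 and 477, against 873), so 4.12% is not their share. The same holds without replicate 1 of stage 32 or of stage 36. From stage 36 to 38, 1 of the 10 rose with either pseudocount. Quantile normalization left 1 fall from stage 40 to 41. Without replicate 1 of stage 32, 0 rose from stage 32 to 36, and 2 without replicate 1 of stage 36. The 2 rises from stage 36 to 38 came to 0 without replicate 2 of stage 36, and to 1 without replicate 1 of stage 36, replicate 2 of stage 38 or either library of stage 6, 15 or 25. The 3 falls came to 0 without replicate 1 of stage 41 and to 1 without replicate 1 of stage 40.

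**Figure D5:**
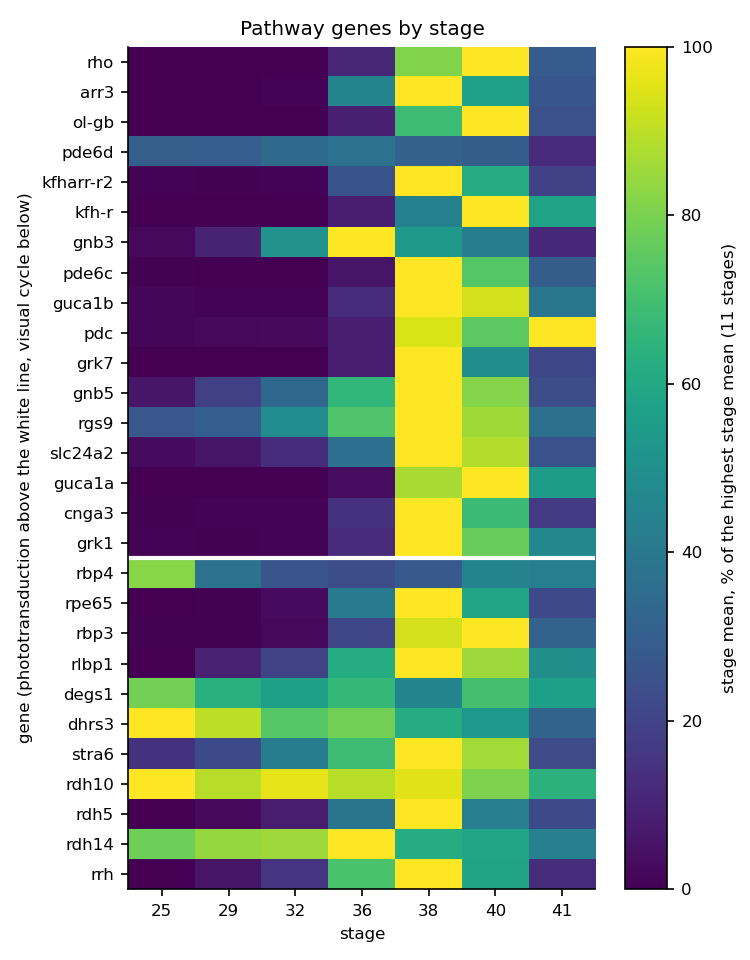
Stage mean of each phototransduction and visual cycle gene matched to a list symbol, at stages 25 to 41, as a percentage of that gene's highest mean over all 11 stages (colour). Most phototransduction genes are dark to stage 32 and brightest at stage 38 or 40, as rho and arr3 are; among visual cycle genes, rpe65, rbp3, rlbp1, rdh5, rrh and stra6 have their highest mean at stage 38 or 40, while rbp4, degs1, dhrs3 and rdh10 are at high levels at stage 25.

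The libraries are whole animals, in which more cells of a type and more RNA per cell cannot be told apart, so marker genes of eye cells were read beside the members. Members of the 3 were left out of these lists. All rod and cone markers found are also on the phototransduction list. All pigment epithelium markers found except otx2 are on the visual cycle list. Their calls thus repeat calls counted above and are no separate reading of cell numbers. The summed level of the 2 rod markers found (kfharr-r2 and grk1, of 10) was 22.3 and 17.3 TPM at stage 36, against 0.345 and 1.45 TPM at stage 32. That of the 4 cone markers found (cnga3, grk7, pde6c and kfh-r, of 12) was 13.2 and 13.9 TPM at stage 36, against 0.171 and 0.477 TPM at stage 32. The cone opsins opn1sw (77.5 and 67.9 TPM at stage 36) and kfh-g (51.5 and 46.1 TPM) matched no list symbol and are not in this sum. The 2 sums thus do not compare rods with cones. From stage 32 to 36, 1 of the 2 rod and 3 of the 4 cone markers rose, against 4.12% of all genes called higher. From stage 36 to 38 all 6 did, against 3.08% of all genes. The 5 pigment epithelium markers found (rlbp1, rdh5, rrh, stra6 and otx2, of 9) summed to 164 and 124 TPM at stage 36, against 117 and 103 TPM at stage 32. From stage 32 to 36, 3 of them rose. The largest part of the sum was otx2, with means of 66 TPM at stage 36 and 77.7 TPM at stage 32. From stage 36 to 38, 1 of the 5 rose and 1 fell, the latter being otx2 (log2 difference -1.54, adjusted p = 0.024).

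The markers of other cells of the eye and of pigment cells were read at the same step. In whole animals they need not mark the eye alone. The 8 genes listed for horizontal and amacrine cells already summed to 230 and 55.1 TPM at stage 11, the blastula. A missing call is thus no reading of retinal cells alone. The 8 markers of horizontal and amacrine cells, the 3 of ganglion cells and the 7 of melanophores gave no call from stage 32 to 36, where 4.12% of all genes were called higher, so a count of 0 is near that share. Of the 4 Mueller glia markers 1 rose (median log2 difference of the 4, 0.99). This was rlbp1, which is counted among the pigment epithelium markers as well. The 4 summed to 175 and 192 TPM at stage 36, against 83.8 and 117 TPM at stage 32. The largest part of this sum was glul, with means of 117 TPM at stage 36 and 76.9 TPM at stage 32. That gene was not called at this step, and its highest mean was 447 TPM at stage 11. The 6 lens markers all rose from stage 25 to 29, where 1529 of the 21179 genes tested were called higher. From stage 32 to 36, 1 of them rose. All 3 members were under 10 TPM up to stage 32, when lens markers already summed to 3048 and 3315 TPM. From stage 40 to 41, where rho and rpe65 fell and 9.71% of all genes were called lower, at least 1 marker of every list fell as well. Among them were 5 of 8 of horizontal and amacrine cells, 5 of 6 of lens and 4 of 7 of melanophores. Of pigment epithelium 3 of 5 fell, of cones 2 of 4 and of rods 1 of 2. The part of such shared falls in those of rho and rpe65 was not tested. The pineal organ, which also holds photoreceptors, had 3 markers at 11.9 and 13.5 TPM in sum at stage 36, against 9.02 and 15.1 TPM at stage 32, and none was called there. How far pineal cells give rise to rho, arr3 or rpe65 RNA was not tested.

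The genes whose log2 levels went most like each member over the 22 libraries were taken among genes with a symbol and a highest stage mean of at least 10 TPM. For rho they were matn1 (Pearson r = 0.992), which encodes a cartilage matrix protein, opn1sw (0.991), gmpr (0.988), an enzyme of purine metabolism, rbp3 (0.988) and kfh-g (0.988). For arr3 they were matn1 (0.989), rho (0.987), rpe65 (0.986), unc119 (0.981), which encodes a carrier of lipidated photoreceptor proteins, and lrtm1 (0.977). For rpe65 they included gabrb2 (0.995), which encodes a subunit of the GABA receptor, unc119 (0.991), gprin1 (0.989) and atp1b2 (0.988). Between rho and rpe65 the correlation was 0.978. The median over all tested genes was 0.153 for rho, 0.166 for arr3 and 0.194 for rpe65. An r of 0.95 or more was reached by 277 genes for rho, 219 for arr3 and 528 for rpe65, so such values are shared by many genes.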

How the data were processed

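The deposited time-course table gives TPM per gene, which the authors computed from poly(A) libraries of pooled embryos or larvae with HISAT2 2.1.0 and StringTie 1.3.3b, per the labels and the study's methods. The build has no assembly name in the sources used here; the study gives it as the then latest medaka reference genome, by citation. TPM keeps no depth. Columns of replicate 1 sum to 980148 to 998174 and those of replicate 2 to 1000000. Column names gave the stage and replicate of every library used, with 0 columns unassigned; the deposited mean columns were not used. Positions are other values, taken from the deposited gene models. Symbols were assigned where a model's span overlapped a RefSeq gene with a Jaccard index of at least 0.5, which gave 9404 genes a symbol. The table of adult gonads was not used, because both of its value columns name the ovary, and the lists of transcription factors and noncoding RNAs were not needed. No sequences are shown.

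A gene was tested if it reached 1 TPM in 2 or more of the 22 libraries, which left 21179. The test was that of limma (version 3.58.1, R 4.3.3), applied to log2(TPM + 1) with stage as the only factor and the variance prior following the mean level (trend). This scale understates changes of low genes. Benjamini-Hochberg adjustment ran over all tested genes within a step, and for the F test over all genes. Nothing states that the replicates are biologically separate beyond their numbers. The p-values and intervals thus measure a spread between replicate libraries that is shared by all 11 stages. They do not measure the spread of the compared libraries alone. For rho, the replicates differed by 0 in log2 level at stage 29 and by 1.57 at stage 32. The code was tested on simulated data with known changes. The members, lists and rules were chosen with earlier results of these data known. Named genes are the 3 members, their family copies by symbol, the 3 most abundant tested genes of each list and the 5 most similar genes to each member; not all that this rule takes are reported here. The fit was repeated with a pseudocount of 0.1 or 5, with no filter or one of 5 TPM, with median-of-ratios or quantile scaling, without the trend, with a replicate block, with other minimum changes, without each library in turn and in the Hd-rR libraries alone. Python 3.11.15 and matplotlib 3.10.9 were used.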

Additional observations from a re-analysis of the deposited data

How the results depend on the processing

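The steps called for rho (3), arr3 (1) and rpe65 (2) came to 2 to 4 for rho, 1 in each case for arr3 and 1 to 3 for rpe65 when 1 library at a time was left out. The rpe65 count was 1 with no filter on low values, in the Hd-rR libraries alone and with a minimum log2 change of 2. Pathway genes rising at 1 step or more numbered 12 to 14 (phototransduction, 13) and 8 to 10 (visual cycle, 9) without single libraries, and 5 visual cycle genes rose with a minimum log2 change of 2. All 3 members passed the F test in every alternative run. Of the 18 changes of a member at a step from stage 25 on, 2 turned direction, neither of them called. From stage 38 to 40 rho ranged from -0.03 (without replicate 1 of stage 40) to 0.59. From stage 25 to 29 arr3 ranged from -0.01 (without replicate 2 of stage 29) to 0.75 without single libraries. With the other settings it ranged from 0.09 to 1.38. The rho change from stage 29 to 32 passed the threshold with a pseudocount of 0.1 (5.58, adjusted p = 3e-05), where 2.55 was obtained with 1, and with a filter of 5 TPM (adjusted p = 0.0439). From stage 25 to 29, rpe65 did so with that pseudocount (2.60, adjusted p = 0.0255) and without replicate 1 of stage 29 (1.64, adjusted p = 0.0341). From stage 36 to 38 it did so with a pseudocount of 5 (1.20, adjusted p = 0.0139) and quantile normalization (1.39, adjusted p = 0.0407). Its fall from stage 40 to 41 was lost with a pseudocount of 0.1 (adjusted p = 0.244) and with median-of-ratios scaling (-1.13, adjusted p = 0.0619). The cause of these changes was not tested.

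The replicate numbers were not treated as pairs, since the rule asked all pairs of stages to have correlated deviations over 0.1. Of 55 pairs, 53 did (median r = 0.256, lowest r = 0.0478). The main fit thus leaves out a deviation that libraries of the same number tend to share. With the replicate block the rho change from stage 29 to 32 was called (2.55, adjusted p = 0.0453), and the block changed no other call of a member; rho had 4 steps called, arr3 1 and rpe65 2. Each library's deviations correlated better, on average, with those of its own number. Genes called higher from stage 32 to 36 (873) numbered 527 with a pseudocount of 0.1, 338 with 5, 477 with quantile normalization and 182 with a minimum change of 2, and those from stage 36 to 38 (653) numbered 374, 347, 901 and 212. With median-of-ratios scaling 1078 genes were called higher at that step and 135 lower, 88.9% higher, against 653 and 282, 69.8% higher. Genes called lower from stage 40 to 41 (2057) numbered 753 with a pseudocount of 5 and 171 with a minimum change of 2. With median-of-ratios scaling the median shift of all genes at the step from stage 36 to 38 was 0.05, against -0.18. The level at which a gene counts as present sets its first stage: at 1 TPM in both libraries it was stage 32 for rho and rpe65 and stage 36 for arr3, and at 5 or 10 TPM stage 36 for all 3. Replicate 2 alone gave stage 32 for arr3 and stage 29 for rpe65. The depth of each library is unknown, so no counting error can be given for values under 1 TPM. The 2 libraries per stage limit every SD.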
